A study of Salmo salar with 58 samples.

Results

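The proteasome genes of Atlantic salmon (Salmo salar) were described in liver and distal intestine after acute exposure to a Fusarium toxin. Genes were chosen by name, as those whose NCBI symbol begins with psma, psmb, psmc, psmd, psme, psmf or psmg, and 23 of the 26239 genes measured met this rule. The rule uses no values, but it was set with earlier results of these data known. The reference lists 28 such symbols, and psmb5, psmb11a, psmc3ip, psmf1 and psmg3 are not analysed here. Polyadenylated RNA was sequenced 12 h after in vivo exposure, in 58 libraries that form 10 groups. Each tissue had 6 controls, 6 libraries of low and 6 of high enniatin B, and 5 libraries of low and 6 of high beauvericin. Both toxins are cyclic hexadepsipeptides. Their N-methylated amino acid is valine in enniatin B and phenylalanine in beauvericin. Doses carry only the names low and high in the labels, and whether a low dose of the toxins was the same amount is not stated. Nor is it stated that differently numbered samples came from different fish, and p-values measure the spread between these samples. Values are normalized read counts, and fold changes are differences of log2(normalized count + 2) ± standard error from limma, with p-values adjusted over all genes and a threshold of 0.05.

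The proteasome is the barrel-shaped protease that breaks down ubiquitin-tagged proteins in the cytosol and nucleus. Its 20S core has rings of alpha subunits, which gate the entrance, around rings of beta subunits, which hold the cutting sites, and the 19S cap recognises, unfolds and feeds in the substrate. In vertebrates, interferon and immune cells bring in alternative beta subunits that form the immunoproteasome, which is known for making peptides for MHC class I, and the intestine is a tissue rich in immune cells.

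The 23 genes cover part of each subcomplex. Of the 26239 genes, 7529 have a symbol that is not a placeholder beginning with LOC. Other proteasome genes may stand under placeholders or other names, so a gene missing from this list may still be expressed. The core is represented by 3 alpha genes (psma2b, psma4, psma5), 1 constitutive beta gene (psmb7) and 5 immunoproteasome beta genes (psmb8b, psmb9a, psmb9-a, psmb12, psmb13a). The cap is represented by 3 ATPases (psmc2, psmc5, psmc6) and 3 other subunits (psmd1, psmd2, psmd8). There are 3 activator genes (psme1, psme2, psme3), 2 chaperones of cap assembly (psmd5, psmd9) and 3 of core assembly (psmg1, psmg2, psmg4). All 23 passed the filter on low values in every fit. In the reference assembly psmb8b, psmb13a, psmb12 and psmb9a are consecutive neighbours, followed by the peptide transporter gene tap2a. The gene psmb9-a lies on an unplaced sequence, and its name is also a synonym of psmb9a. Their sequences were not compared here, and if reads are shared between these genes, how the values divide is uncertain.

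Reads assigned to genes numbered 23.3 to 40.6 M in an intestine library and 30.7 to 61.7 M in a liver library. In 3 intestine libraries markers departed from the labelled tissue, most in controls 5 and 6. There npc1l1, the cholesterol uptake protein of enterocytes, stood at 1.4 and 1.8 normalized counts, against 3719 to 21696 in the other 27 intestine libraries, and slc6a19, an amino acid transporter, was at 0 in both. The sum of the 2 smooth muscle markers acta2 and cnn1b was 232041 and 301768, against 32195 to 127938. The sum of 4 leukocyte markers (cd3e, cd8a, cd79b and the general leukocyte gene ptprc) was 1327 and 1497. It was 3432 to 6153 in the other intestine libraries and 938 to 1721 in liver. In replicate 3 of low enniatin B the sum of 10 enterocyte markers was 97427, and npc1l1 was at 3719. The sum was 310590 to 840645 in the other intestine libraries apart from controls 5 and 6, where it was 1224 and 2013. In liver it was 62123 to 489497, so this sum is not particular to enterocytes. Every intestine comparison with control is given with and without controls 5 and 6, and replicate 3 of low enniatin B was left out in turn.

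Between tissues, all 5 immunoproteasome beta genes and the activator gene psme2 were lower in control liver than in control intestine, while psmb7, of the constitutive core, was higher. Of the 23 genes, 14 passed the test between control liver and control intestine, 5 higher and 9 lower in liver. Of all genes, 68.6% passed, 31.6% higher and 37% lower in liver, so the count over the 23 is no larger than elsewhere in the table. The median difference over the 23 was -0.25, and over all genes -0.07. It was -0.11 without intestine control 2, -0.16 without control 3 and -0.42 without control 6. When controls 5 and 6 were left out, 15 passed, 2 higher and 13 lower in liver, against 70.8% of all genes, 32.2% higher and 38.6% lower, and the median was -0.56 over the 23 and -0.10 over all genes. In whole tissue, fewer cells of a type and less RNA per cell cannot be told apart. The sample descriptions give liver and intestine libraries different prefixes, each shared by all libraries of the tissue. What the prefixes name is not stated, and a tissue difference cannot be told apart from whatever separates them. The direction of a tissue difference also rests on the factor by which each library was normalized. In liver controls 1 assigned read equalled 1.33 to 1.78 normalized counts, and in intestine controls 0.57 to 0.90. The 23 genes together held 0.024% to 0.039% of assigned reads in liver controls and 0.057% to 0.147% in intestine controls. A gene higher in liver by normalized count need not be higher per assigned read.

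**Figure D1:**
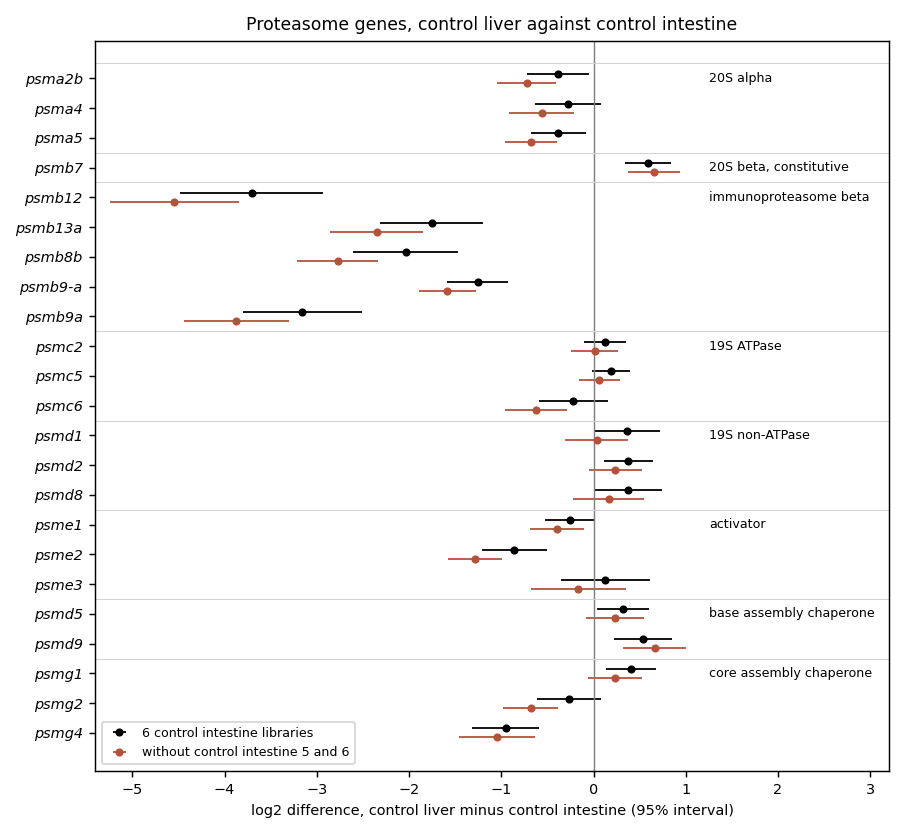
Difference between control liver and control intestine for each of the 23 proteasome genes, on the log2(normalized count + 2) scale (horizontal axis), with 95% intervals, using all 6 intestine controls (black) or those without controls 5 and 6 (red). The 5 immunoproteasome beta genes lie between -1.26 and -3.71 with all controls, and psmb7 lies at 0.59.

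The immunoproteasome gene psmb12, an additional beta gene described in fish, showed the widest gap. Its normalized counts were 676, 1292, 864 and 708 in intestine controls 1 to 4 and 172 and 127 in controls 5 and 6. In liver controls they ran from 18.6 to 68.5, with a median of 33.9. The highest liver control lay below the lowest intestine control, and the 2 divergent intestine controls lay between the tissues. The difference was -3.71 ± 0.39 (n = 6 and 6, limma adjusted p = 3.4e-12), and without controls 5 and 6 it was -4.55 ± 0.35 (adjusted p = 7.8e-17). Over all 29 liver libraries the range was 5.09 to 76.4, and over the other 27 intestine libraries 567 to 1292.

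The gene psmb9a encodes the immune subunit known in mammals as LMP2. It stood at 990, 1709, 1099 and 698 in intestine controls 1 to 4 and at 241 and 239 in controls 5 and 6. In liver controls its lowest, median and highest values were 21.3, 81.7 and 120. Again no liver control reached any intestine control. The log2 difference was -3.16 ± 0.32 (limma adjusted p = 1.5e-12), and -3.87 ± 0.29 without controls 5 and 6. The other gene of that name, psmb9-a, ran from 720 to 2473 in intestine controls, with a median of 1403, and from 418 to 636 in liver controls, with a median of 581. Its groups did not overlap either, and its difference was -1.26 ± 0.16 (limma adjusted p = 2e-09).

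The gene psmb8b belongs to the family of the chymotrypsin-like immune subunit, LMP7 in mammals. Intestine controls 1 to 4 had 1060, 1384, 983 and 843 normalized counts, and controls 5 and 6 had 264 and 194. Liver controls had a lowest value of 85.5, a median of 156 and a highest value of 255. The liver range reached above control 6 of the intestine and stayed below the other 5. The difference was -2.04 ± 0.28 (limma adjusted p = 8.9e-09), and -2.77 ± 0.22 without controls 5 and 6. The neighbouring gene psmb13a, a further beta gene of fish, ran from 371 to 2155 in intestine controls (median 1270) and from 200 to 456 in liver controls (median 266). These ranges overlapped through intestine control 6, at 371, and control 5, at 485, lay just above the liver range. The difference of psmb13a was -1.75 ± 0.28 (limma adjusted p = 2.3e-07), and -2.35 ± 0.25 without controls 5 and 6.

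The ranges of control liver and control intestine did not overlap for 3 of the 23 genes, psmb12, psmb9a and psmb9-a, all lower in liver, and 19% of all genes were lower without overlap. With intestine controls 1 to 4 alone, 7 of 23 were lower without overlap (the 5 immunoproteasome genes, psme2 and psmg2), against 27.9% of all genes. With all groups pooled and intestine controls 5 and 6 left out, the 5 immunoproteasome genes and psme2 were lower in all 29 liver libraries than in any of the 27 intestine libraries, and 19.1% of all genes were so. No proteasome gene was higher in liver without overlap in any of these 3 counts, against 16.2%, 22.1% and 14% of all genes. The sum of the 4 leukocyte markers moved the same way as the immunoproteasome genes. It was 1087 to 1415 in liver controls and 3582 to 6153 in intestine controls 1 to 4. The general leukocyte gene ptprc was the most abundant of the 4, so the sum does not measure T and B cells alone. cd8a was at 0 in part of the liver libraries and at most 14.1 in any. The sum of 2 myeloid markers (mpx, lyz) overlapped between the tissues, at 213 to 4578 over all liver and 1131 to 5956 over all intestine libraries. Its median was lower in liver, at 710, against 2197 in intestine without controls 5 and 6. Among controls the medians were 682 in liver and 2259 in intestine controls 1 to 4, with ranges of 233 to 1605 and 1207 to 3443. The part of these leukocyte and myeloid markers in the tissue difference was not tested.

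**Figure D2:**
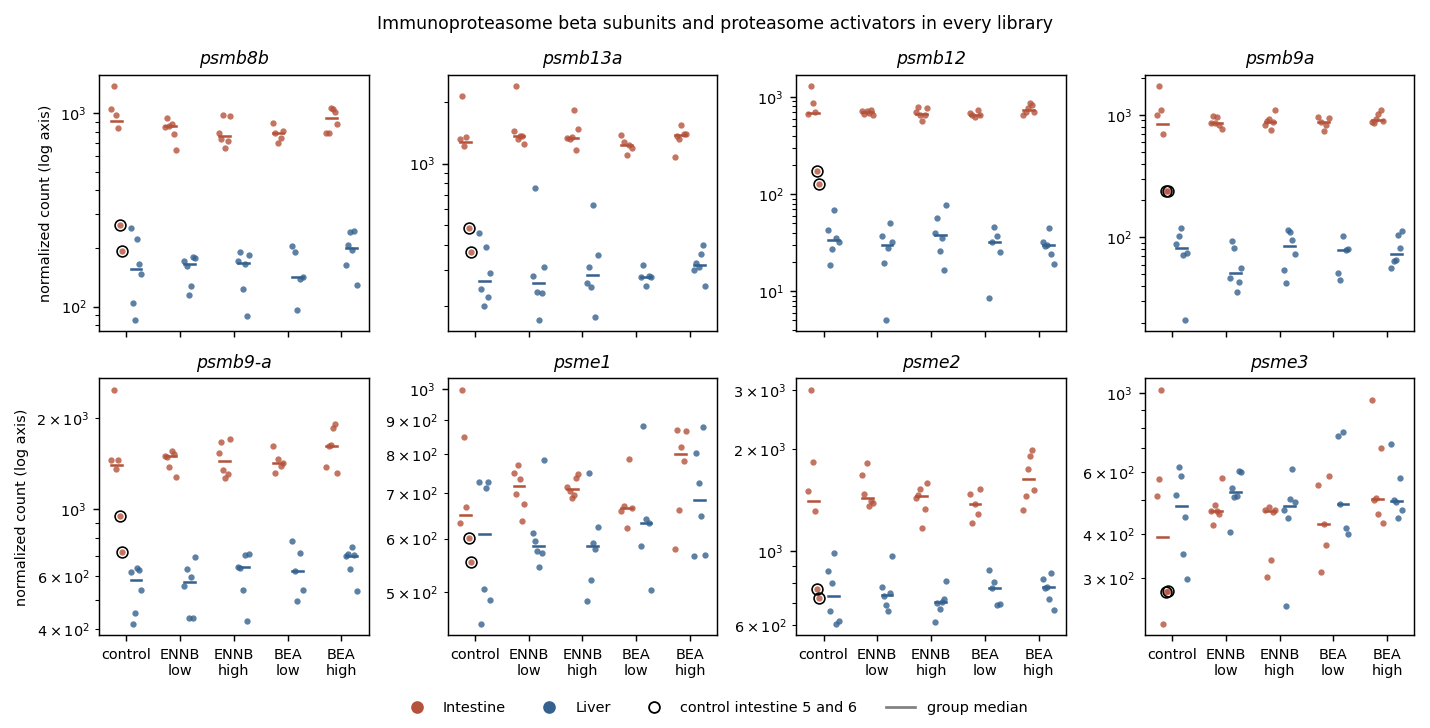
Normalized counts (log axis) of the 5 immunoproteasome beta genes and 3 activator genes in each of the 58 libraries, by group (horizontal axis), intestine in red and liver in blue, with a bar at the group median and intestine controls 5 and 6 circled. For psmb12 all liver points lie at or below 76.4, and the circled controls, at 172 and 127, lie between the tissues.

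Of the 3 alpha genes, which form the outer rings and the gate, 2 were lower in liver controls. psma5 ran from 932 to 2749 in intestine controls (median 1537) and from 965 to 1619 in liver controls (median 1113). The whole liver range lay within the intestine range. The log2 difference of psma5 was -0.38 ± 0.15 (limma adjusted p = 0.022), and it was -0.68 ± 0.14 without controls 5 and 6. psma2b had a difference of -0.39 ± 0.17 (limma adjusted p = 0.039), and -0.72 ± 0.16 without them. psma4 differed by -0.28 ± 0.18 (limma adjusted p = 0.16), and by -0.56 ± 0.18 (adjusted p = 0.0042) without controls 5 and 6. The calls of psma2b and psma5 were lost when any of several single controls was left out: for psma2b the adjusted p then reached 0.209 (without intestine control 2), and for psma5 0.170 (also without intestine control 2).

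The constitutive beta gene psmb7, which carries the trypsin-like site in the standard core, went the other way on the scale of normalized counts. Its intestine controls ran from 637 to 1053 (median 993) and its liver controls from 995 to 1663 (median 1498). Only the lowest liver control fell within the intestine range. The difference was 0.59 ± 0.13 (limma adjusted p = 4.6e-05), and 0.65 ± 0.14 without controls 5 and 6. Over all groups psmb7 ran from 995 to 2024 in liver and from 625 to 1045 in intestine without these 2 libraries.

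Of the 19S genes only psmd2 passed between the control tissues with all controls. None of the 3 ATPase genes passed: psmc2, psmc5 and psmc6, subunits of the ring that unfolds substrates, had log2 differences of 0.12 ± 0.12, 0.19 ± 0.11 and -0.22 ± 0.19 (limma adjusted p = 0.34, 0.11 and 0.29). psmc6 was lower in liver at -0.63 ± 0.17 (limma adjusted p = 0.00084) when controls 5 and 6 were left out. psmd2, a scaffold subunit of the cap base, ran from 1180 to 2259 in intestine controls (median 1618) and from 1431 to 2731 in liver controls (median 2231). These ranges overlapped broadly, and the difference of 0.38 ± 0.13 passed (limma adjusted p = 0.011) but not without controls 5 and 6, at 0.24 ± 0.14 (adjusted p = 0.13). The psmd2 call was also lost without intestine control 4 alone (adjusted p = 0.058). psmd1, the other large scaffold subunit, and psmd8, of the lid, were at 0.37 ± 0.18 and 0.38 ± 0.18 and did not pass (limma adjusted p = 0.065 and 0.059).

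Among the activators, which dock on the ends of the core, psme1 and psme2 form the interferon-inducible cap PA28 in mammals and psme3 the nuclear one. psme2 stood at 1505, 3001, 1841 and 1311 in intestine controls 1 to 4 and at 770 and 726 in controls 5 and 6, and ran from 607 to 983 in liver controls, with a median of 732. Controls 5 and 6 lay inside the liver range and the other 4 lay above it. The psme2 difference was -0.86 ± 0.17 (limma adjusted p = 2.3e-05), and -1.28 ± 0.15 without controls 5 and 6. Its partner psme1 had medians of 650 in intestine and 608 in liver controls and a difference of -0.25 ± 0.14 (limma adjusted p = 0.093), which became -0.39 ± 0.15 (adjusted p = 0.015) without them. psme3 differed by 0.13 ± 0.24 (limma adjusted p = 0.65), with intestine controls from 223 to 1022.

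The assembly chaperones split. psmg4, a core assembly factor that in mammals works with psmg3, ran from 116 to 236 in intestine controls (median 149) and from 58.6 to 118 in liver controls (median 79.2), so that the ranges touched only at their ends. It was lower in liver by -0.95 ± 0.18 (limma adjusted p = 8.6e-06). psmg1 and psmg2 form a pair that starts the alpha ring in mammals. They had differences of 0.41 ± 0.14 (limma adjusted p = 0.0073) and -0.27 ± 0.17 (adjusted p = 0.17). Without controls 5 and 6 these became 0.23 ± 0.14 (adjusted p = 0.14) and -0.68 ± 0.15 (adjusted p = 7.1e-05), so which member of the pair passed depended on those libraries. Both chaperones of the cap base were higher in liver, psmd9 by 0.54 ± 0.15 (limma adjusted p = 0.002) and psmd5 by 0.32 ± 0.14 (adjusted p = 0.042). psmd5 no longer passed without controls 5 and 6, at 0.23 ± 0.16 (adjusted p = 0.18), and its call was lost without any of 8 single controls, with adjusted p up to 0.192 (without intestine control 4).

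Genes that work beside the immunoproteasome were drawn from a list of antigen processing and interferon response genes, of which 12 were found by symbol. Listed genes without a match, among them b2m, calr, irf1 and nlrc5, may be present under other names. In control liver against control intestine 8 were lower and 3 higher, both with all controls and without controls 5 and 6. Of all genes 37% were lower and 31.6% higher with all controls. tap2a and tap2b encode parts of the transporter that carries proteasome products into the endoplasmic reticulum, and they differed by -4.15 ± 0.51 (limma adjusted p = 4.6e-10) and -2.50 ± 0.31. The trimming aminopeptidases erap1b and erap2 differed by -1.35 and -1.12, and tapbp, of the peptide-loading complex, by -0.60. The general chaperones canx and pdia3, also used outside antigen loading, were higher in liver by 0.99 ± 0.14 and 1.77 ± 0.23, as was the signalling gene stat1a by 0.87 ± 0.12. tap2a, the chromosomal neighbour of the immunoproteasome genes, lay between 0 and 22.04 normalized counts in all liver libraries and between 172 and 746 in the intestine libraries other than controls 5 and 6.

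Of 6 genes that control proteasome transcription, 5 passed between control tissues, where 68.6% of all genes did. The same share stands beside the counts of the other companion lists, and none of these counts differed without controls 5 and 6. nfe2l1b, a copy of the gene for the factor that in mammals raises proteasome genes when activity falls short, was lower in liver by -0.82 ± 0.09. nfe2l2a, of the related stress factor, was higher by 1.14 ± 0.08 (limma adjusted p = 6.8e-18), and keap1a, which encodes its repressor, by 2.05 ± 0.25. maff and ngly1 were lower in liver, by -1.09 ± 0.17 and -0.24 ± 0.09. Among 6 other proteasome-associated genes 1 passed, zfand5b, which encodes a proteasome-stimulating zinc-finger protein in mammals, at 1.89 ± 0.13 (limma adjusted p = 2.7e-19). Among 5 genes of ubiquitin handling 2 passed, both higher in liver: rad23aa, a shuttle to the proteasome, at 1.54 ± 0.12, and nploc4, a cofactor of the unfolding ATPase p97, at 0.47 ± 0.09.

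In the intestine no proteasome gene passed the test after exposure to either toxin. The count was 0 of 23 in low enniatin B, high enniatin B, low beauvericin or high beauvericin against control, where 0.0%, 0.0%, 0.0156% and 0.00391% of all genes passed. At an unadjusted p under 0.05 there was 1 member in low enniatin B (psmb13a), 0 in high enniatin B, 1 in low beauvericin (psmc2) and 0 in high beauvericin, against 17.5%, 17.7%, 18.7% and 16.9% of all genes. edgeR and DESeq2 on the recovered reads also called 0 in each. The 4 comparisons share their controls. With controls 5 and 6 left out, again none passed (0.0%, 0.0%, 0.00391% and 0.00391% of all genes), and 3, 10, 5 and 1 had an unadjusted p under 0.05, against 6.96%, 9.43%, 8.18% and 4.67% of all genes.

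The immunoproteasome genes showed how much these values rest on the controls. All 5 had a positive log2 difference from control in each exposure, with medians of 0.42 in low and 0.44 in high enniatin B and 0.35 in low and 0.52 in high beauvericin. The medians were -0.29, -0.27, -0.31 and -0.18 when controls 5 and 6 were left out, and the number of positive differences was 1, 0, 0 and 0 of 5. psmb12 was 653 to 734 in low enniatin B, 567 to 780 in high enniatin B and 657 to 866 in high beauvericin, with medians of 698, 676 and 740, and its low beauvericin values lay between 626 and 729. All these libraries lay between the 2 low controls and the highest control, 1292. Its difference in high beauvericin was 0.65 ± 0.35 (limma adjusted p = 0.33) with all controls and -0.19 without controls 5 and 6. psmb13a gave the smallest p in low enniatin B: its libraries had a lowest value of 1249, a median of 1363 and a highest value of 2396, against 371, 1270 and 2155 in controls. The ranges overlapped, and the difference was 0.61 ± 0.27 (limma adjusted p = 0.26). That difference also rests on replicate 2, at 2396, with the other 5 between 1249 and 1447.

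The other immunoproteasome genes had overlapping ranges in the exposed intestine groups. psmb9a had medians of 862 and 878 in low and high enniatin B and 866 and 904 in low and high beauvericin, within an overall range of 741 to 1086. psmb8b had medians of 857, 764, 794 and 947 in the same order, and its highest exposed library, at 1061, lay below the highest control, at 1384. psmb13a had medians of 1363, 1340, 1241 and 1384, and psmb9-a of 1496, 1437, 1417 and 1622. For each of these 4 genes the ranges of the 4 exposed groups overlapped one another, and the highest control lay above all but replicate 2 of low enniatin B for psmb13a. Among the activators, medians of psme1 were 718, 711, 665 and 801 and of psme2 1439, 1452, 1380 and 1635, against 650 and 1408 in controls. psme3 had medians of 466, 465, 428 and 502, with 393 in controls, whose range of 223 to 1022 took in every exposed library.

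Controls 5 and 6 lay below every other intestine library for 11 of the 23 genes (psma2b, psma5, all 5 immunoproteasome genes, psmc6, psme2, psmg1 and psmg2), and 20.1% of all genes were below in this way. They lay above every other library for 0 of 23, against 20.3% of all genes. The mean log2 level of the 5 immunoproteasome genes was 8.45 and 8.12 in them, 9.91 to 10.77 in controls 1 to 4 and 9.78 to 10.25 in treated libraries. The mean of the 3 ATPase genes was 9.02 and 8.82 in them, 9.14 to 9.90 in controls 1 to 4 and 8.97 to 9.61 in treated libraries, so that there control 5 lay within the treated range. The lower sums of the 4 leukocyte markers, the higher smooth muscle sums and the near absence of enterocyte markers moved with these values, and their part in them was not tested.

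**Figure D3:**
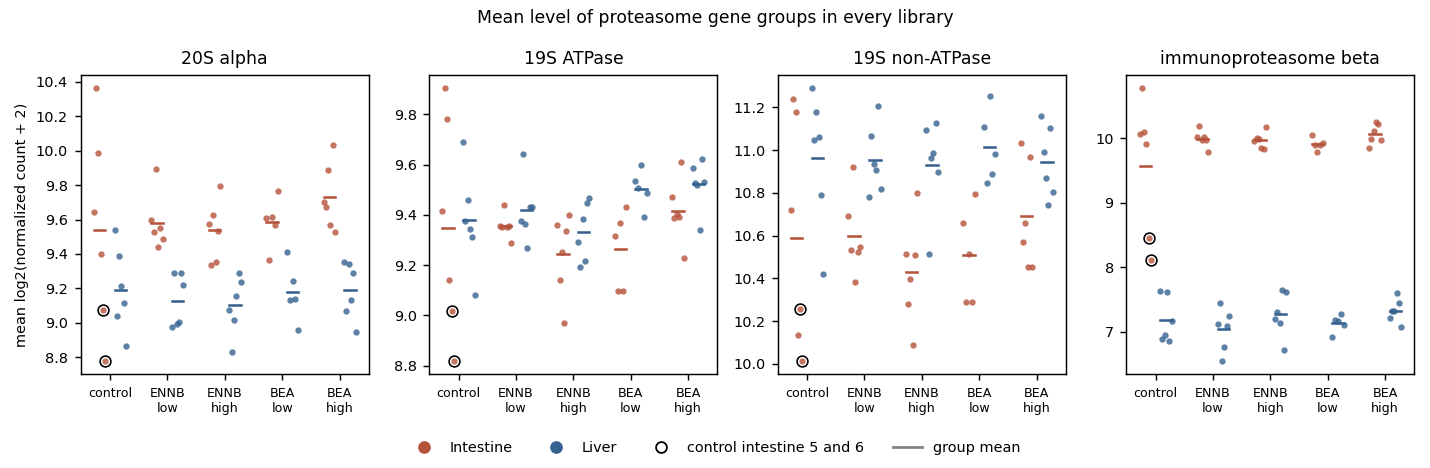
Mean log2(normalized count + 2) over the genes of 4 subcomplexes (20S alpha, 19S ATPase, 19S non-ATPase and immunoproteasome beta) in each library, by group, with a bar at the group mean. For the immunoproteasome, intestine controls 5 and 6, at 8.45 and 8.12, lie below all other intestine libraries, which begin at 9.78, and above the liver group means of 7.03 to 7.32.

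Without controls 5 and 6 the 18 genes outside the immunoproteasome list also sat mostly below control. Over all 23, the difference was negative for 22, 22, 23 and 22 genes in low enniatin B, high enniatin B, low beauvericin and high beauvericin, with medians of -0.18, -0.28, -0.25 and -0.13, while 49.7%, 53.1%, 52.4% and 49.4% of all genes were higher. The 10 genes with an unadjusted p under 0.05 in high enniatin B were psmc2, psmc6, psmd1, psmd2, psma5, psme2, psmg1, psmg2, psmb12 and psmb8b, with differences between -0.27 and -0.44 and a smallest adjusted p of 0.52. With all controls the same 4 medians were 0.04, -0.01, 0.02 and 0.15. Leaving out 1 library at a time, they ran from -0.05, -0.15, -0.12 and 0.04 (each without control 6) to 0.19, 0.13, 0.16 and 0.33 (each without control 2), so 3 of the 4 changed sign with a single library. In control intestine the members' median SD on the log2 scale was 0.57 over 6 libraries and 0.43 over controls 1 to 4, against 0.14 to 0.20 in the treated groups. Control 2 had the highest mean of the 6 controls for all 4 subcomplexes plotted, for example 10.36 for the alpha genes, where treated libraries ran from 9.34 to 10.04. Over all 23 genes the mean was 10.16 in control 2 and 9.86 in control 3, above the treated libraries, at 9.30 to 9.81. Controls 1 and 4, at 9.61 and 9.31, lay within that treated range. The 4 comparisons share these controls, and members were correlated between libraries, so the negative signs are not independent.

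The ATPase gene psmc2 gave the smallest p in the intestine in low beauvericin. Its values there were 412 to 535 with a median of 491 (n = 5), against 478 to 671 with a median of 550 in controls. The ranges overlapped from 478 to 535, and the difference was -0.23 ± 0.10 (95% interval -0.44 to -0.02, limma adjusted p = 0.23). In high enniatin B psmc2 was at 429 to 546 and differed by -0.18 ± 0.10 (limma adjusted p = 0.32). psmb7 differed by -0.21 ± 0.13 there and by -0.22 ± 0.14 in low beauvericin (limma adjusted p = 0.40 in both). psmd9 differed by -0.27 ± 0.17 in low beauvericin (limma adjusted p = 0.39). The intervals of 19, 20, 21 and 19 of the 23 genes lay within 1 log2 unit of 0 in low and high enniatin B and low and high beauvericin, and those of all 23 did without controls 5 and 6.

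**Figure D4:**
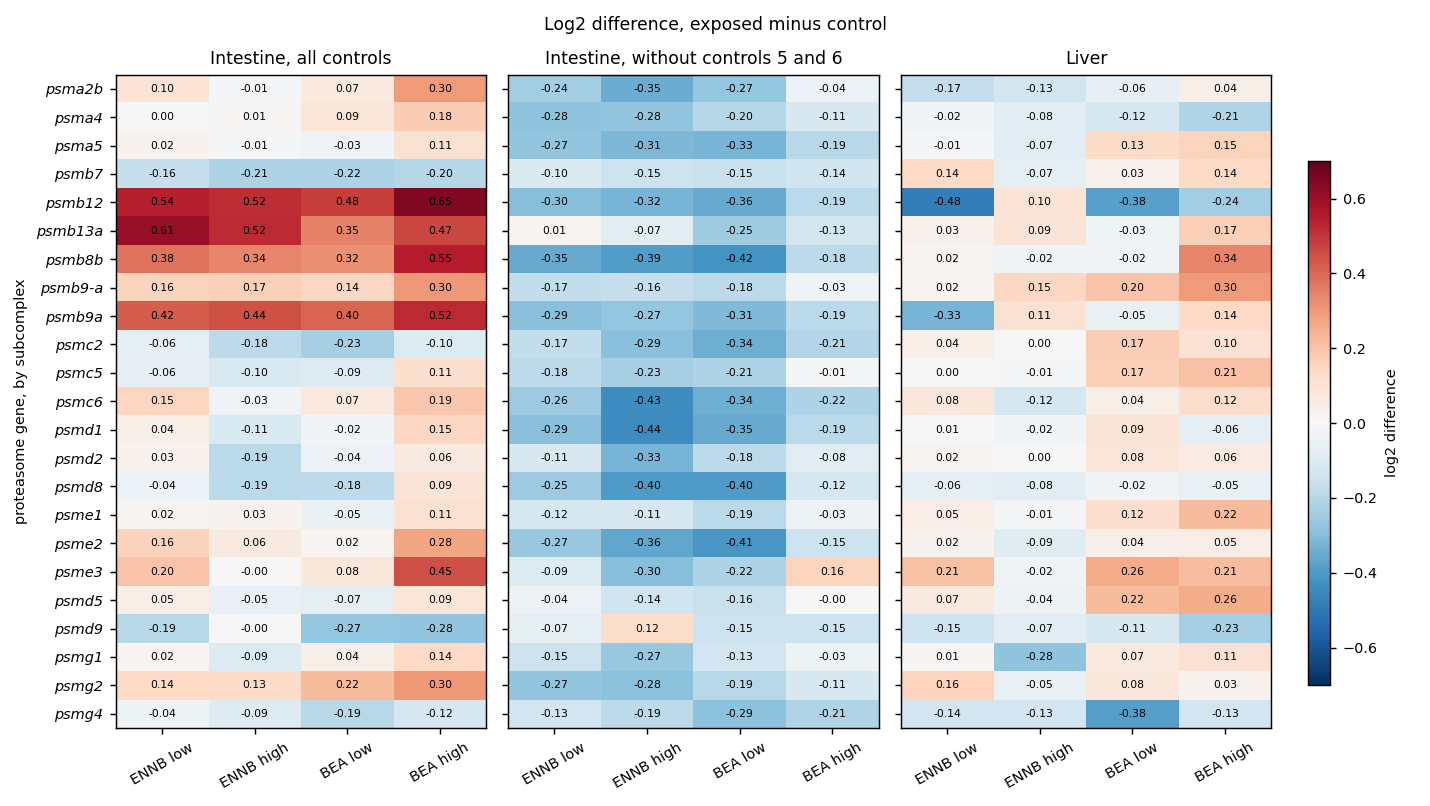
Log2 difference from control of each of the 23 genes (rows, by subcomplex) in the 4 exposures (columns), for intestine with all controls, intestine without controls 5 and 6, and liver, coloured and printed in each cell. With all controls the intestine values lie between -0.28 and 0.65; without controls 5 and 6 nearly all are negative, and none passed the test in any panel.

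In the liver no proteasome gene passed in low enniatin B, high enniatin B, low beauvericin or high beauvericin either (0.0%, 0.0%, 0.127% and 0.0% of all genes passed). At an unadjusted p under 0.05 there were 0, 0, 0 and 1 of 23, against 3.64%, 2.77%, 8.27% and 9.44% of all genes, and edgeR and DESeq2 called 0 in each. The member in high beauvericin was psmc5, an ATPase of the cap base, at 968 to 1250 with a median of 1087, against 691 to 1100 with a median of 991 in controls. The ranges overlapped, and the difference was 0.21 ± 0.10 (limma adjusted p = 0.53). One control, number 6 at 691, lay far below the other 5, which ran from 950 to 1100. psmb9-a, at 537 to 750 against 418 to 636 in controls, differed by 0.30 ± 0.15 (limma adjusted p = 0.53) in high beauvericin.

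The liver medians over the 23 genes were 0.02, -0.04, 0.04 and 0.11 in low enniatin B, high enniatin B, low beauvericin and high beauvericin. They ran from -0.04, -0.11, -0.02 and 0.06 (each without liver control 6) to 0.07, 0.01, 0.10 and 0.17 (each without liver control 1), and the first 3 crossed 0. The immunoproteasome genes were low there in every group: psmb12 had medians of 33.9 in controls, 30.02 and 37.5 in low and high enniatin B and 32.3 and 29.6 in low and high beauvericin, and all these ranges overlapped. psmb9a had liver medians of 81.7, 51.6, 84.3, 79.2 and 73.7 in the same order, psmb8b of 156, 167, 169, 143 and 202, psmb13a of 266, 259, 285, 279 and 319, and psmb9-a of 581, 575, 643, 623 and 702. Among the liver activators, psme1 had medians of 608, 585, 585, 633 and 686, psme2 of 732, 740, 704, 776 and 779, and psme3 of 480, 527, 481, 487 and 497. No liver median of psmb12, psmb9a, psmb8b, psmb13a, psmb9-a or psme2 reached the lowest value of the 27 intestine libraries. psmg4 in low beauvericin differed by -0.38 ± 0.23 (limma adjusted p = 0.67). psmg1 in high enniatin B, at 434 to 680 with a median of 561 against 496 to 813 with a median of 684, differed by -0.28 ± 0.14 (95% interval -0.58 to 0.01). The intervals of 22, 23, 22 and 22 genes lay within 1 log2 unit of 0.

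The toxins were compared with each other at the dose of the same name, in 4 pairs, with p-values adjusted over all genes within each pair, and no further over the 4 pairs. No proteasome gene passed in low enniatin B minus low beauvericin or in high enniatin B minus high beauvericin, in the intestine (0.0% and 0.00391% of all genes) or in the liver (0.0% and 0.0%). At an unadjusted p under 0.05 there were 0 and 0 of 23 in intestine (1.53% and 3.04% of all genes) and 0 and 3 in liver (3.99% and 10.3% of all genes), and edgeR and DESeq2 called 0. The 3 in liver were lower in high enniatin B than in high beauvericin. psmg1, at 434 to 680 in high enniatin B and 561 to 894 in high beauvericin, differed by -0.39 ± 0.14 (95% interval -0.68 to -0.10, limma adjusted p = 0.37). psmc5 differed by -0.22 ± 0.10 and psmd5 by -0.30 ± 0.14 (limma adjusted p = 0.46 and 0.47). All 3 pairs of ranges overlapped.

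Between high enniatin B and high beauvericin 20 of 23 genes had a negative difference in intestine and 18 in liver, with medians of -0.17 and -0.13. Members were correlated between libraries with all groups pooled, controls included, more in intestine than in liver. These signs therefore cannot be counted as independent. The share of all genes with a negative difference is not given for this comparison, so these counts do not set the 23 genes apart from other genes. In the intestine psmc5, psmg1 and psmd2 had the smallest p, at -0.22 ± 0.12 (95% interval -0.46 to 0.02), -0.23 ± 0.13 (-0.50 to 0.03) and -0.25 ± 0.14 (-0.54 to 0.05). Between the low doses the medians were 0.06 in intestine and -0.06 in liver, and psmb13a in intestine differed by 0.26 ± 0.29 (95% interval -0.33 to 0.85). Control libraries enter these comparisons only through the spread, which the fit shares over all groups of a tissue. With only the compared groups in the fit, again 0 of 23 passed in each pair. In intestine, leaving out controls 5 and 6 also gave 0 of 23, where 0.0% and 0.00391% of all genes passed. The intervals of 23 and 22 genes in intestine and 22 and 22 in liver lay within 1 log2 unit of 0 at the low and the high dose. A p that misses the threshold does not show that the valine- and phenylalanine-containing toxins act alike.

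Between the doses of a toxin again 0 of 23 genes passed, in high minus low enniatin B and high minus low beauvericin, in intestine (0.0% and 0.0% of all genes) and liver (0.0% and 0.0%). None had an unadjusted p under 0.05, against 1.73% and 1.82% of all genes in intestine and 3.06% and 3.8% in liver, and edgeR and DESeq2 called 0. The fit shares its spread over all groups of a tissue, controls included. In intestine the members' median SD on the log2 scale was 0.57 in controls, against 0.14 to 0.20 in treated groups. This can widen the intervals there, so the absence of small p-values does not show that the doses act alike. Without controls 5 and 6, 0.0% and 0.0% of all genes passed in intestine, and so none of the 23. In intestine 22 of 23 genes had a positive difference between high and low beauvericin, with a median of 0.14 against -0.01 over all genes. Among them were the activator gene psme3, at 0.37 ± 0.28, and the ATPase gene psmc5, at 0.20 ± 0.12. Members were correlated between intestine libraries, with a median of 0.72 among core and cap genes without controls 5 and 6. That median pools the other controls with the treated groups. The signs of the 23 genes therefore cannot be counted as independent of one another. The share of all genes with a positive difference is not given here, so the count of signs does not set these genes apart. In liver psmg1 differed by -0.29 ± 0.14 between high and low enniatin B (95% interval -0.58 to 0.00), with ranges of 434 to 680 and 547 to 826 that overlapped.

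Whether an exposure acted differently in liver and intestine was tested by the interaction of exposure and tissue. None of the 23 genes passed for low enniatin B, high enniatin B, low beauvericin or high beauvericin (0.0%, 0.0%, 0.0267% and 0.00381% of all genes passed), and edgeR and DESeq2 called 0. At an unadjusted p under 0.05 there were 0, 0, 1 and 0, against 11%, 10.4%, 14.3% and 12.5% of all genes. The 1 gene was psmc2 in low beauvericin, with a liver difference above the intestine difference by 0.40 ± 0.17 (95% interval 0.06 to 0.75, limma adjusted p = 0.28). The immunoproteasome gene psmb12 had interactions of -1.03 ± 0.55, -0.86 ± 0.57 and -0.89 ± 0.55 in low enniatin B, low beauvericin and high beauvericin (limma adjusted p = 0.49, 0.50 and 0.50). None of the 23 genes passed either when controls 5 and 6 were left out (0.0%, 0.0%, 0.0% and 0.00381% of all genes). The medians over the 23 genes then went from -0.02, -0.06, 0.06 and -0.07 to 0.19, 0.24, 0.30 and 0.19. In intestine the psmb12 difference from control turned from positive to negative without these controls in each of its exposures named here. The size of the psmb12 interactions thus depends on those libraries, and their values without them are not given.

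Over the 4 companion lists 0 of 580 tests in the exposure, toxin, dose and interaction comparisons passed with limma, the tool run for them, and 17 had an unadjusted p under 0.05. Over all genes, the share that passed in a comparison ran from 0.0% to 0.127%, and the share with an unadjusted p under 0.05 from 1.53% to 18.7%. The smallest limma adjusted p was 0.21, for stat1a in high enniatin B and for pdia3 in low beauvericin, both in intestine. The 12 antigen processing and interferon genes were also compared with control in intestine with controls 5 and 6 left out. In low enniatin B, high enniatin B, low beauvericin and high beauvericin, 12, 11, 12 and 11 of them had a negative difference. Their medians were -0.22, -0.21, -0.17 and -0.09, and no median over all genes is set beside them. The shares of all genes that were higher in these comparisons are given above, beside the proteasome genes. These comparisons share the same few remaining controls. Correlations among the 12 genes are not given, so the negative signs cannot be counted as independent, and they do not show a response to exposure.

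With controls and treated groups pooled, most proteasome genes varied together from library to library in intestine. In liver this held mainly for the core and cap genes. After subtracting group means, the median Pearson correlation over the 253 pairs of members was 0.54 in the 27 intestine libraries without controls 5 and 6 (0.65 with them) and 0.24 in the 29 liver libraries. Over all gene pairs the median was 0.001. That median alone does not show how often other sets of genes reach such values. Among the 10 core and cap subunits (the alpha genes, psmb7 and the 19S genes) the median over 45 pairs was 0.72 in those 27 intestine libraries and 0.49 in liver. Among the immunoproteasome genes the median over 10 pairs was 0.63 and 0.30, and between the core and the immunoproteasome genes it was 0.45 and 0.05. Spearman's rho was computed over all 29 libraries of a tissue. In intestine the median rho was 0.71 in the core and cap, 0.71 in the immunoproteasome and 0.39 between them, beside Pearson medians of 0.77, 0.88 and 0.65 over the same 29 libraries. In liver the median rho was 0.40, 0.32 and 0.06. Points in these correlations share the library, its depth and its cell mixture. Spread was uneven between intestine groups even without controls 5 and 6. The mean log2 level over all members had an SD of 0.36 in intestine controls 1 to 4, against 0.08 to 0.13 in treated intestine groups. Correlations within the treated groups alone are not given. How far the intestine medians, and their excess over liver, rest on these 4 controls was not tested.

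**Figure D5:**
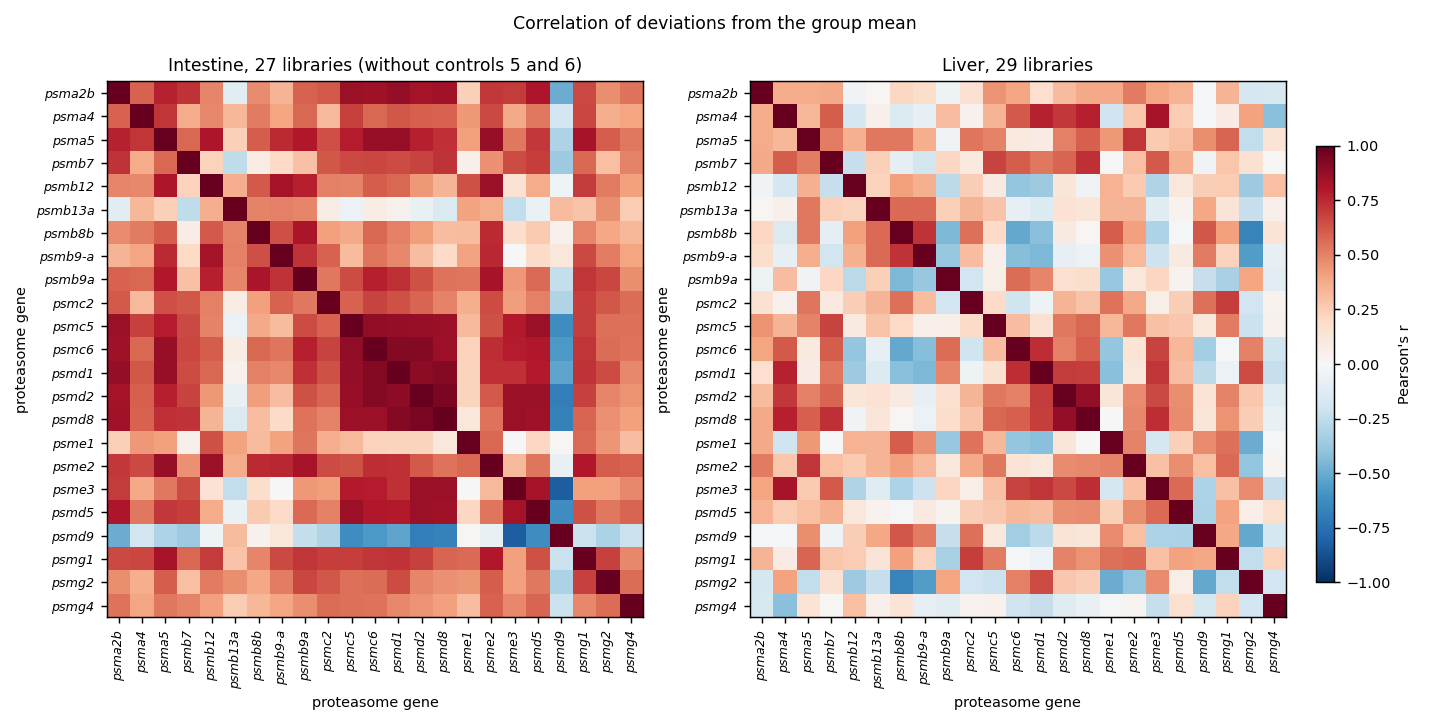
Pearson correlation of deviations from the group mean for each pair of the 23 genes, in 27 intestine libraries without controls 5 and 6 (left) and 29 liver libraries (right), ordered by subcomplex. The core and cap block has a median of 0.72 in intestine and 0.49 in liver, and psmd9 runs against most other members in intestine.

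The activator genes are given one by one, with no test of a difference between their correlations. psme2, of the interferon-inducible cap, correlated with psmb12 at 0.86, psmb9a at 0.82, psmb9-a at 0.75, psmb8b at 0.74 and psmb13a at 0.37 in the 27 intestine libraries. It correlated as highly with genes outside the immunoproteasome, at 0.87 with psma5 and 0.80 with psmg1. In liver the values with the 5 immunoproteasome genes were 0.26, 0.11, 0.33, 0.41 and 0.34. psme1, which pairs with psme2 in mammals, ranged from 0.32 to 0.64 with the 5 genes in intestine and from -0.38 to 0.60 in liver. psme3, of the nuclear cap, ranged from -0.25 to 0.43 with the 5 genes in intestine. The chaperone gene psmd9 had a median correlation of -0.30 with the other members in intestine and 0.12 in liver. In liver psmb8b and psmb9-a correlated at 0.73, while psmb9a stood at -0.45 with psmb8b and -0.38 with psmb9-a, and in intestine psmb8b and psmb9a stood at 0.81.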

How the data were processed

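RNA was extracted with QIAzol and an EZ1 kit, enriched for poly(A) and sequenced as paired reads on a NovaSeq, per the labels' protocols. Trim Galore 0.4.2, FastQC, HISAT2, featureCounts of Subread and DESeq2 1.18.1 were used, per the submitters' processing notes. For the genome build and the strand setting, both not given in the sources used here, nothing is assumed, and coordinates are left out. Values in the deposited file are normalized counts (unit: signal), reads that the authors divided by a factor of each library. Multiplied back, 99.9999% of values lay within 0.1 read of a whole read. This scale compares a gene between libraries relative to other genes, by the factor of each library and not per assigned read. Lengths of genes were not used here, so levels of different genes are not compared.

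Gene names were taken from reference assembly Ssal_v3.1, where 24184 GeneIDs matched. The members and gene lists were chosen with earlier results of these data known. Limma 3.58.1 in R 4.3.3 (trend, robust) was fitted to log2(value + 2), for genes with 10 or more in at least 5 libraries (25601 genes in intestine, 25157 in liver, 26239 over both tissues). Tests are two-sided, with Benjamini-Hochberg adjustment over all genes. edgeR 4.0.16 and DESeq2 1.42.0 on recovered reads, other filters and pseudocounts, a replicate block and leaving out each library were alternatives. Members named per comparison are those that pass, and otherwise the 3 with the smallest p, with the immunoproteasome genes throughout. The scripts were tested on simulated data. No pair of libraries within a group agreed within sampling noise (lowest chi-square per degree of freedom 28.6).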

Additional observations from a re-analysis of the deposited data

Results flagged for a closer look

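Among 200 groups of libraries tested, those of the 20 members named, 12 held a library whose gap to the nearest other exceeded Dixon's 95% critical value. Chance gives about 1 in 20 groups. All values here are normalized counts.

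The immunoproteasome gene psmb13a stood at 2396 in replicate 2 of low enniatin B in intestine, with the others at 1249 to 1447. In liver of the same exposure it stood at 762 in replicate 2, with the others at 172 to 310. In high enniatin B replicate 4 held the highest psmb13a value in both tissues, 1829 and 630. The labels do not say that a number names the same fish in both tissues.

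Replicate 3 of low enniatin B in intestine was high for the alpha genes psma2b, at 696 with the others at 428 to 500, and psma4, at 740 with the others at 490 to 556. Its peptide transporter gene slc15a1 stood at 9.71. In liver, replicate 6 of low enniatin B was high for psma2b, at 367 with the others at 299 to 322, and for psme1, at 785 with the others at 543 to 611. Replicate 2 of high enniatin B in liver was low for psmd2, at 1632 with the others at 2142 to 2387, and high for psmg4, at 136 with the others at 54.3 to 79.8.

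The remaining 4 were single values. The cap ATPase gene psmc5 stood at 691 in liver control 6, with the others at 950 to 1100. The core gene psmb7 stood at 637 in intestine control 4, with the others at 988 to 1053. The chaperone gene psmd5 stood at 518 in replicate 5 of low beauvericin in intestine, with the others at 350 to 372. The chaperone gene psmg4 stood at 80.6 in replicate 5 of low beauvericin in liver, with the others at 55.2 to 58.1. What sets these libraries apart was not tested.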

How the results depend on the processing

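Over 25 settings of the control tissue comparison, psmb7, psmb8b, psmb9a, psmb9-a, psmb12, psmb13a, psme2 and psmg4 passed in each. The count of members called was 14 of 23 with limma, edgeR and DESeq2. It was 15 after TMM scaling (7 higher and 8 lower in liver) and 8 with only the 2 groups compared in the fit. With each library left out it was 11 to 17. When 8 rows of older symbols were added to the 23, 17 of that longer list were called. The share of all genes that passed is given only for limma on all libraries and without controls 5 and 6. Counts under the other alternatives and tools, throughout, are not set against all genes. In the other 20 comparisons 0 members passed under any alternative. The median over the members moved by less than the spread between replicates under each alternative, though in intestine low enniatin B, low beauvericin and high beauvericin it turned negative without controls 5 and 6. That spread is wide in intestine controls, at a median SD of 0.57 over the members, against 0.14 to 0.20 in treated groups. Moving by less than it therefore does not show that the intestine medians are stable. The interaction medians, with 1 library left out at a time, ran from -0.19 to 0.08, -0.20 to 0.07, -0.09 to 0.20 and -0.26 to 0.04 in low and high enniatin B and low and high beauvericin, each crossing 0. Without controls 5 and 6, the sign changed for psmb12 (-0.30), psmb9a (-0.29) in low enniatin B, psmb13a in high enniatin B (-0.074), psmb12 (-0.19), psmb8b (-0.18) and psmb13a (-0.13) in high beauvericin, and the psmb13a interaction of high enniatin B (0.16). Leaving out replicate 3 of low enniatin B as well gave -0.31, -0.29, -0.074, -0.19, -0.18, -0.13 and 0.16. The intestine correlation medians were 0.479 (Spearman) and 0.535 (without controls 5 and 6) over all pairs, 0.715 and 0.630 in the immunoproteasome and 0.387 and 0.451 between it and the core.

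The labels give groups the same replicate numbers. With the replicate number as a block 15 members passed between control tissues, and with a block by exposure and number, chosen after seeing the data, 16 did (18 without controls 5 and 6, where the psmb13a interaction of high enniatin B was 0.076), with 0 in the other comparisons. Liver and intestine libraries with the same exposure and number deviated together (median correlation 0.233, 27 of 29 over 0.1, 28 of 29 highest with their own number). This is seen in the data, and the labels do not say whether such pairs came from the same fish. The main tests between tissues and of interactions treated all libraries as independent. Matching members by product name was not run. Leaving out symbols that are not subunits could change no member, since the only one so marked, psmc3ip, is not among the members. The assembly chaperones were kept.

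The limits are these. Only 5 or 6 libraries stand in a group, and the median half-width of an exposure interval over the members was 0.38 log2 units in intestine and 0.30 in liver. Controls 5 and 6 decide the sign of the median immunoproteasome difference from control in intestine. psmb12 and tap2a are near the low end of the counts in liver, and values of psmb9a and psmb9-a may share reads.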
